A study of Mus musculus with 6 samples.

Results

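Dual-specificity MAPK phosphatases (DUSPs) were examined as 10 genes listed by name, Dusp1, Dusp2, Dusp4, Dusp5, Dusp6, Dusp7, Dusp10, Dusp14, Dusp16 and Dusp22, of the 54532 genes in the count table. All 10 passed the filter on low counts and belonged to the 15938 genes tested. The list holds the members chosen for it and not the whole DUSP family, whose other genes are described at the end. RNA had been sequenced from CD4+ T cells of the spleen of male C57BL/6 mice aged 6 to 8 weeks, isolated by magnetic negative selection and cultured on anti-CD3ε with anti-CD28, IL-2, IL-12p70 and anti-IL-4, the conditions that direct CD4+ T cells to the Th1 type. In 3 control cultures (Th1 cells) no inhibitor was given, and in 3 cultures (ALX-5407-treated Th1 cells) ALX-5407, which blocks the glycine carrier GlyT1, was present at 500 nM. Both groups were harvested at 72 h, no genetic change is named for either, and by label they differed in the inhibitor alone. The series design gives 72 h of exposure and 0.1% DMSO as vehicle, whereas the methods of the study also mention a shorter exposure.

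MAP kinases (ERK, JNK and p38) carry signals from the T cell receptor and from cytokine and stress receptors to the nucleus. They are switched on when both a threonine and a tyrosine of their activation loop are phosphorylated, and DUSPs switch them off by removing both phosphates. Many DUSP genes are themselves transcribed in response to MAPK signalling, so that their mRNA forms part of a negative feedback loop. The nuclear phosphatases Dusp1, Dusp2, Dusp4 and Dusp5 are inducible by stimulation, Dusp6 and Dusp7 are cytoplasmic and prefer ERK, Dusp10 and Dusp16 prefer JNK and p38, and Dusp14 and Dusp22 are small atypical members without the MAPK-binding domain.

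The promoter stretches of 4 of the genes are shown because these genes moved furthest in each direction (Dusp5, Dusp7 and Dusp16) or held the motif of a stimulus-responsive factor (Dusp1). They are RefSeq windows on GRCm38.p6, read in the direction of transcription and ended before the start of the gene in the count table (for Dusp1, the gene of GENCODE M21 extends further upstream). Capitals mark matches, on either strand, to the letters searched.
Dusp5, chr19:53528895-53529108, + strand: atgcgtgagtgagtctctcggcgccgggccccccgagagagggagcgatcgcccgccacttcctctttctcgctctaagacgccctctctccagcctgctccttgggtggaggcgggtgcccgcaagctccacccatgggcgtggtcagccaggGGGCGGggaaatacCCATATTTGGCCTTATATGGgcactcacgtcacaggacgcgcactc
Dusp7, chr9:106368382-106368631, + strand: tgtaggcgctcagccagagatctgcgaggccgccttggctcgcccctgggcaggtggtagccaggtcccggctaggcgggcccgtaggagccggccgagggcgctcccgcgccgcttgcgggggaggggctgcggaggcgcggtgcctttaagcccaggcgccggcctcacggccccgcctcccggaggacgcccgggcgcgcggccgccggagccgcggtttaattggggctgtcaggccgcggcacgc
Dusp1, chr17:26508520-26508722, - strand: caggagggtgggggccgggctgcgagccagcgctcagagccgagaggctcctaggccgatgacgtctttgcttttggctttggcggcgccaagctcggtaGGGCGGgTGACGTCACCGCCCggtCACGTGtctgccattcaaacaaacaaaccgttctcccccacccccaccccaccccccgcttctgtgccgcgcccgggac
Dusp16, chr6:134792629-134792878, - strand: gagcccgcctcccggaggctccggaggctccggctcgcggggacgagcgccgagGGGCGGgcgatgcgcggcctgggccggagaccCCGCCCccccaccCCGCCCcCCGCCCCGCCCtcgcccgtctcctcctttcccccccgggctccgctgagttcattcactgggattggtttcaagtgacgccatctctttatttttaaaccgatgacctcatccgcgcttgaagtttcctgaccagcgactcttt

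In the Dusp5 stretch the capitals mark a GC box (GGGCGG) and, after it, a pair of adjoining CArG boxes, the motif bound by serum response factor. Dusp1 holds a cAMP response element (TGACGTCA) between a pair of GC boxes and an E-box (CACGTG) after them. Dusp16 holds 5 GC boxes, of which the last pair shares a base. The Dusp7 stretch, cut before the gene start, holds none of the motifs. Over all 32851 RefSeq windows of 300 bases, 250 before and 50 after the start, 35.7% held a GC box, 7.15% an E-box, 1.79% a cAMP response element and 1.63% a CArG box. In whole windows, Dusp5, Dusp7 and Dusp14 held 1 GC box, Dusp1, Dusp2, Dusp10 and Dusp22 held 3, and Dusp16 held 5. The Dusp6 window held 0. GC boxes were thus not particular to genes that moved, as Dusp10 and Dusp14 did not pass the test described below. The CArG box was added to the search after the Dusp5 sequence had been seen. 4 further motifs were searched in the same way and had no match in the windows of the 9 genes that have one: the AP-1 site TGANTCA (7.81% of all windows), the ETS site CCGGAAG (8.86%), the TATA box TATAAA (13.6%) and the ATF4-C/EBP site TGATGNAA (3.97%). Matches are descriptions of letters and were not tested as binding sites. GC content of the 9 windows ran from 57.3% for Dusp6 to 79.0% for Dusp22, all above the median of 52.7% over all windows.

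The libraries held 30801753 to 36727788 counts, and the share of mitochondrial counts was 2.67% to 3.12% in Th1 cells and 1.94% to 2.05% in ALX-5407-treated Th1 cells. All 10 CD4 T cell markers were expressed. Their summed level was 3470 to 3580 CPM (counts scaled to library size) in Th1 cells and 3350 to 3400 CPM after ALX-5407. Higher were 2, Cd28 (mean 535 to 766 CPM) and Cd5 (356 to 420 CPM). Lower were 5, Cd4 (646 to 470 CPM) and, by log2 fold change, Cd3d (-0.39), Cd3g (-0.35), Trbc2 (-0.30) and Zap70 (-0.42). The sum thus held opposite moves. Marker counts in this paragraph stand beside 24.5% of all genes tested higher and 23.2% lower. Of 7 Th1 markers, 2 were higher, Tbx21 at a log2 fold change of 0.34 and Hlx at 1.81. Lower were 3, Ifng at -0.79, Stat4 at -1.16 and Il18r1 at -0.76, while Il12rb2 at -0.01 and Cxcr3 at 0.25 were not called. The sum of these markers went from 1370 to 1580 CPM down to 1130 to 1170 CPM. Within it, Ifng went from a mean of 660 to 383 CPM, so this sum largely follows Ifng and not the list as a whole. Markers of other cells summed to 8.45 to 9.37 against 12.8 to 15.7 CPM for B cells (3 of 7 tested genes higher), 13.4 to 13.7 against 8.04 to 10.5 CPM for CD8 T and NK cells (2 of 3 lower), and 4.18 to 5.91 against 8.19 to 11.1 CPM for erythroid cells and platelets (2 of 4 higher). The 10 myeloid markers summed to 85.3 to 96.5 against 30.1 to 37.0 CPM. Nearly all of this came from Ly6g, at a mean of 72.1 against 27.0 CPM, and Cd68, at 18.3 against 5.44 CPM. Only Ly6g and Cd68 passed the count filter, both lower. Lyz2, Itgam, Csf1r, Adgre1, Cd14 and Itgax were at or below 0.428 CPM in every library, and S100a8 and S100a9 at 0. The sum thus describes Ly6g and Cd68 and not the list as a whole. These shifts ran along the groups, and their part in the results below was not tested. In bulk RNA, fewer cells of a type and less RNA per cell cannot be told apart.

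Of the 10 phosphatase genes, 7 passed an adjusted p-value of 0.05 in the edgeR quasi-likelihood test, as did 47.7% of all genes tested. Dusp1, Dusp2, Dusp5 and Dusp7 were higher in ALX-5407-treated Th1 cells and Dusp4, Dusp16 and Dusp22 lower, so 4 of 10 rose and 3 of 10 fell, where 24.5% of all genes tested rose and 23.2% fell. With the added threshold of an absolute log2 fold change above 1, Dusp7 was the 1 gene that rose (3.36% of all genes tested) and Dusp16 the 1 that fell (6.68% of all genes). The 3 libraries of each group did not overlap in the same 4 genes above and 3 genes below, against 28.4% and 27.1% of all genes. The median log2 fold change of the 10 was 0.03, beside 0.005 over all genes tested, and the median of the absolute values was 0.49, beside 0.36. Their mean counts lay between 248 and 5590 per library, and 8 of 10 were at or above the median of 510 counts of the genes tested. The plot of levels by culture shows every library.

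**Figure D1:**
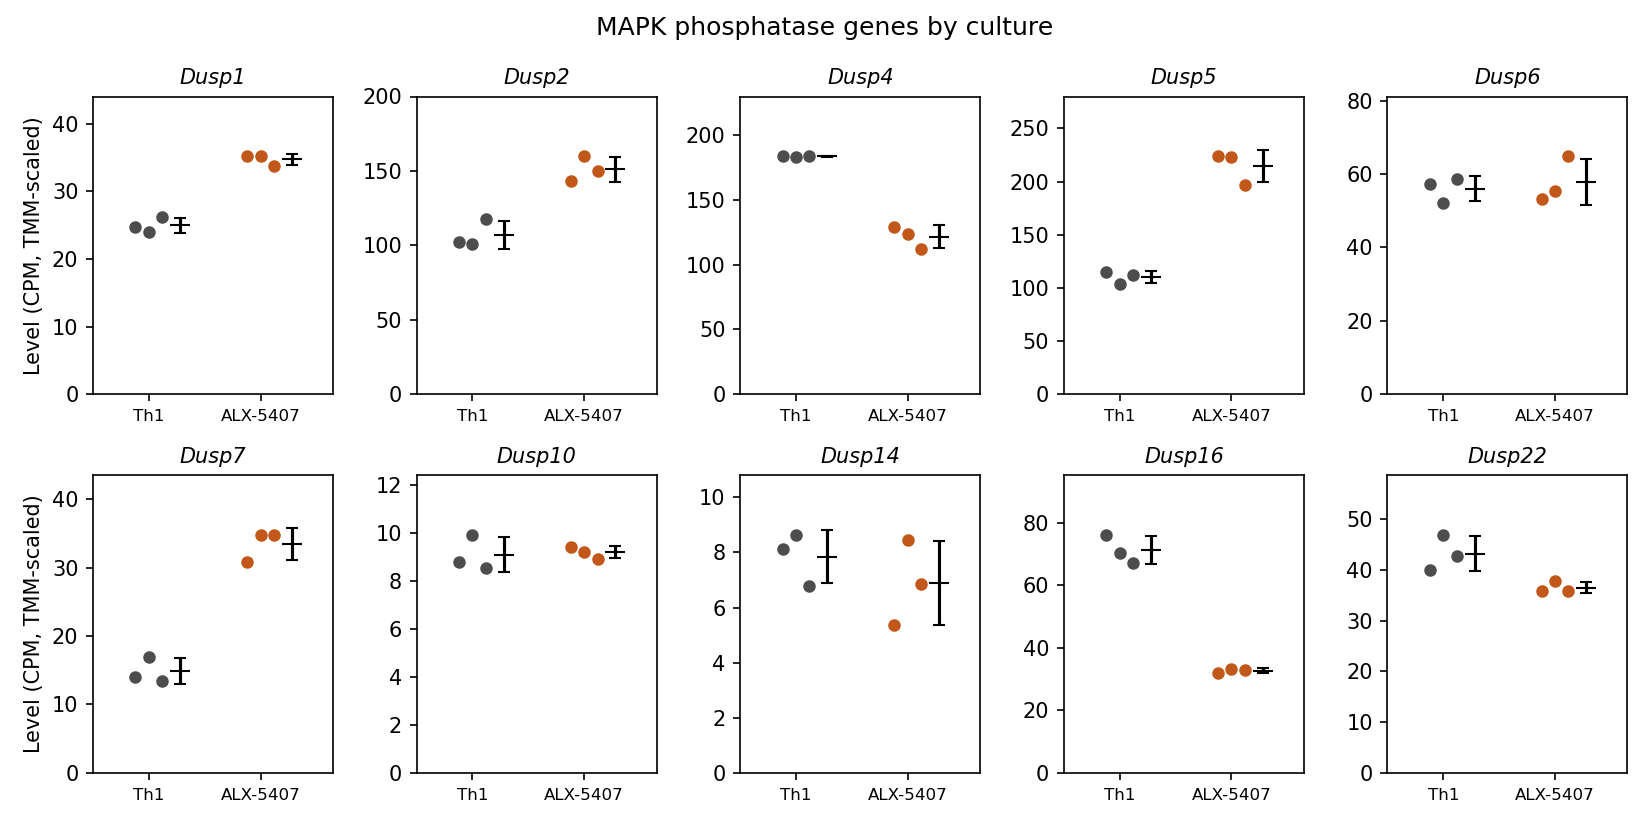
Level of each of the 10 phosphatase genes in CPM scaled by TMM library sizes, in panels with their own axis from 0. Grey points are the 3 Th1 cultures, orange points the 3 ALX-5407 cultures, and black bars the mean ± SD. The groups lie apart in 7 panels, with Dusp16 falling from 71.3 to 32.7 CPM and Dusp7 rising from 14.8 to 33.5 CPM, and overlap for Dusp6, Dusp10 and Dusp14.

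Among the nuclear inducible phosphatases, 3 rose and Dusp4 fell. Dusp5, a nuclear phosphatase that acts on ERK and anchors it in the nucleus, lies on chromosome 19 from 53529109 to 53542431 (GRCm38, + strand) with 4 exons. It was counted 3737, 3268 and 3434 times in the Th1 libraries and 7898, 8309 and 6902 times in the ALX-5407 libraries. Scaled to library size, these counts were 115, 104 and 112 CPM against 224, 223 and 197 CPM. Every treated culture lay far above every control culture, and treated culture 3 was the lowest of its group. The mean rose from 110 ± 5.40 to 214 ± 15.2 CPM (SD, n = 3 each), with a log2 fold change of 0.96 (standard error 0.0756, 95% interval 0.80 to 1.12, adjusted p = 5.73e-08 from edgeR). It was just under the threshold for a DEG and passed it, at 1.02, without ALX-5407 replicate 3. An antisense gene, AC137853.2, covers 547 of its 2473 exon bases (22.1%), and the share of reads from that gene cannot be told apart from those of Dusp5 where strand was not used.

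Dusp2, a phosphatase of activated lymphocytes that acts on ERK and p38, was at 102, 101 and 118 CPM in Th1 cells and at 143, 160 and 150 CPM in ALX-5407-treated Th1 cells. The lowest treated culture was above the highest control culture. The gene, 2.22 kb with 4 exons on chromosome 2 from 127336159 to 127338376, rose by a log2 fold change of 0.50 (standard error 0.0791, interval 0.33 to 0.66, adjusted p = 7.7e-05 from edgeR), from 107 ± 9.79 to 151 ± 8.38 CPM (SD, n = 3 each). Dusp1, an immediate early gene whose product acts on p38, JNK and ERK and whose promoter stretch holds the cAMP response element, had 24.7, 24.0 and 26.2 CPM in Th1 cells and 35.2, 35.2 and 33.7 CPM with the inhibitor. Both groups were narrow and well separated. Its rise was 0.48 on the log2 scale (standard error 0.0842, interval 0.30 to 0.66, adjusted p = 0.000204 from edgeR), close in size to that of Dusp2.

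Dusp4, a nuclear phosphatase of ERK and JNK on chromosome 8 from 34807297 to 34819894, went the other way. Th1 cultures were at 184, 183 and 184 CPM, and treated cultures at 129, 124 and 112 CPM. The groups did not overlap. The level fell from 184 ± 0.752 to 121 ± 8.63 CPM (SD, n = 3 each), with a log2 fold change of -0.60 (standard error 0.0722, interval -0.75 to -0.44, adjusted p = 4.94e-06 from edgeR). The coefficient of variation of Dusp4 was 0.41% in Th1 cells, the lowest of the 10 genes there, and 7.11% in treated cells.

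Of the cytoplasmic ERK phosphatases, Dusp7 rose and Dusp6 did not pass the test. Dusp7 lies on chromosome 9 from 106368632 to 106375724 (+ strand, 3 exons) behind a promoter window of 78.7% GC. It was counted 457, 533 and 415 times in Th1 libraries and 1088, 1300 and 1220 times in ALX-5407 libraries, or 14.0, 17.0 and 13.5 CPM against 30.8, 34.8 and 34.8 CPM. All treated cultures were well above all controls. With 14.8 ± 1.89 CPM before and 33.5 ± 2.32 CPM after (SD, n = 3 each), it had the largest rise of the 10, 2.26-fold (log2 fold change 1.17, standard error 0.106, interval 0.95 to 1.40, adjusted p = 2.2e-07 from edgeR). Dusp6, the feedback phosphatase whose transcription follows ERK activity, was at 57.3, 52.1 and 58.6 CPM in Th1 cells and at 53.2, 55.4 and 64.9 CPM in treated cells. The libraries were intermixed, with the highest value in a treated culture and the lowest in a control. The log2 fold change was 0.05 with an interval from -0.14 to 0.23 (adjusted p = 0.694 from edgeR), and its sign changed with the scaling and with the replicate left out.

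The JNK and p38 phosphatases were likewise unequal. Dusp16, a phosphatase of JNK and p38 that shuttles between nucleus and cytoplasm, is encoded on chromosome 6 from 134715468 to 134792625 (- strand, 77.2 kb, 7 exons). Its counts were 2481, 2206 and 2069 in Th1 libraries and 1125, 1245 and 1150 in ALX-5407 libraries, or 76.2, 70.4 and 67.2 CPM against 31.9, 33.4 and 32.8 CPM. The treated cultures lay close together, all far below the controls. The level fell from 71.3 ± 4.55 to 32.7 ± 0.765 CPM (SD, n = 3 each), to 0.459 of the control (log2 fold change -1.12, standard error 0.0781, interval -1.29 to -0.96, adjusted p = 1.4e-08 from edgeR), the largest fall of the 10. Dusp10, which also acts on JNK and p38 and is known to restrain cytokine production by T cells, had 8.78, 9.92 and 8.55 CPM in Th1 cells and 9.43, 9.19 and 8.93 CPM with ALX-5407. The treated values fell inside the range of the controls. Its log2 fold change of 0.02 had an interval from -0.25 to 0.28 (adjusted p = 0.932 from edgeR), and its sign was not stable across alternatives.

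Of the atypical members, Dusp22 was lower by a small step and Dusp14 did not pass the test. Dusp22, which dephosphorylates the T cell receptor kinase Lck, had 39.9, 46.9 and 42.8 CPM in Th1 cells and 35.8, 37.8 and 35.9 CPM in treated cells. The groups lay apart by a small gap. The mean fell from 43.2 ± 3.51 to 36.5 ± 1.13 CPM (SD, n = 3 each), with a log2 fold change of -0.24 (standard error 0.0837, interval -0.42 to -0.07, adjusted p = 0.0247 from edgeR). This call did not hold in edgeR without Th1 replicate 2 (adjusted p = 0.108) or without ALX-5407 replicate 1, 2 or 3 (adjusted p = 0.0893, 0.0512 and 0.0744). Dusp14, a negative regulator of T cell receptor signalling, was the least counted of the 10, with 8.11, 8.64 and 6.79 CPM in Th1 cells and 5.38, 8.44 and 6.85 CPM in treated cells. The groups overlapped. Its log2 fold change was -0.19 with the widest interval of the 10, -0.54 to 0.17 (adjusted p = 0.387 from edgeR).

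**Figure D2:**
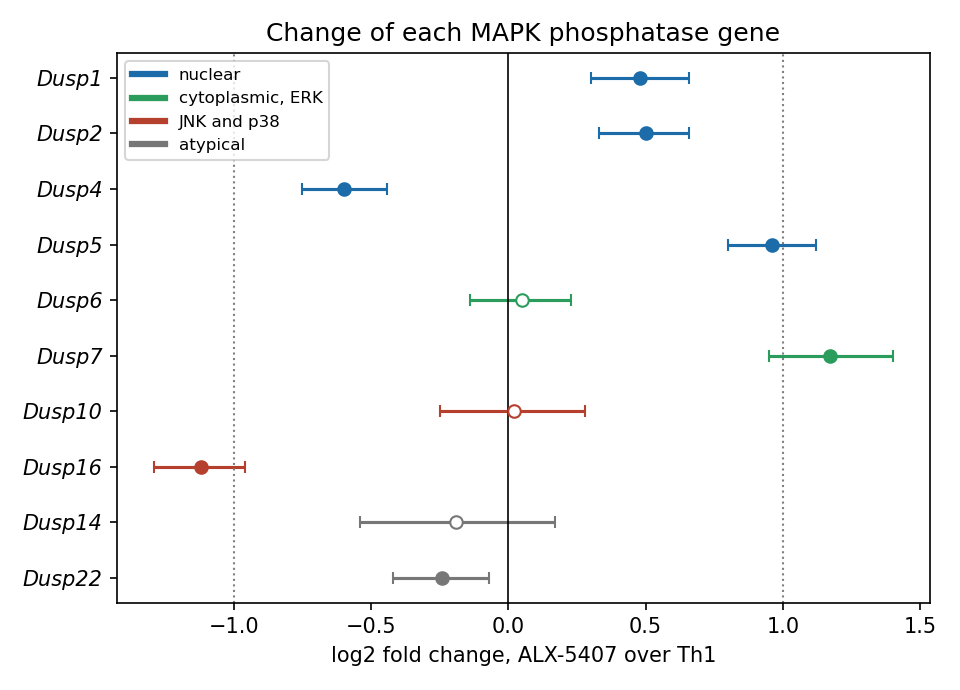
Log2 fold change of each gene, ALX-5407 over Th1, with its 95% interval from edgeR (horizontal bars) and coloured by class. Filled points passed an adjusted p-value of 0.05, open points did not, and dotted lines mark a log2 fold change of 1 in either direction. Dusp7 at 1.17 and Dusp16 at -1.12 lie at the ends, and the intervals of Dusp6, Dusp10 and Dusp14 include 0.

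Levels were next compared between the genes, per length of the gene (RPKM, the CPM divided by the gene length in kilobases). In Th1 cells Dusp4 was highest at 67.0 ± 0.275 RPKM, followed by Dusp2 at 53.4 ± 4.89, Dusp5 at 44.6 ± 2.19 and Dusp6 at 17.9 ± 1.10 RPKM (SD, n = 3 each), with no overlap between neighbours. Dusp1, Dusp16 and Dusp22 followed at 9.25, 9.14 and 8.45 RPKM, and each overlapped the next in this order. Dusp7 and Dusp14, at 4.42 and 4.03 RPKM, also overlapped, and Dusp10 was lowest at 2.99 RPKM. In ALX-5407-treated Th1 cells Dusp5 had the highest mean, 86.7 ± 6.15 RPKM, and overlapped Dusp2 at 75.4 ± 4.19 RPKM, while Dusp4 came after both at 44.3 ± 3.15 RPKM (SD, n = 3 each). Dusp6, Dusp1, Dusp7 and Dusp22 followed at 18.5, 12.9, 9.98 and 7.14 RPKM without overlap between neighbours. Dusp16, at 4.19 RPKM, overlapped Dusp14 at 3.54, which overlapped Dusp10 at 3.02 RPKM. In order of the means, Dusp4 went from place 1 to 3, Dusp5 from 3 to 1, Dusp7 from 8 to 6 and Dusp16 from 6 to 8, and the other 6 genes kept theirs.

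**Figure D3:**
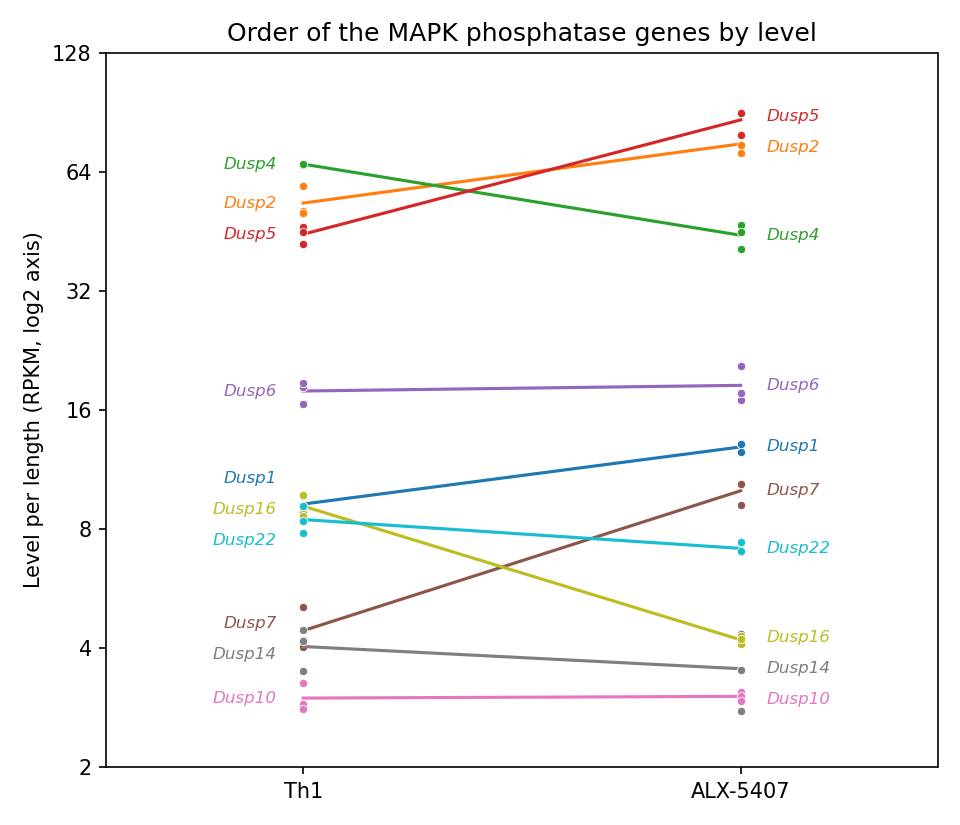
Level per length (RPKM, log2 axis) of the 10 genes in the 3 Th1 cultures (left) and the 3 ALX-5407 cultures (right). Points are cultures and lines join the means. The line of Dusp4 falls from 67.0 to 44.3 RPKM across the rising lines of Dusp2 and Dusp5, and that of Dusp16 falls across that of Dusp7.

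Summed over the 10 genes, the level per length was 221, 216 and 227 RPKM in Th1 cells and 265, 275 and 257 RPKM in treated cells, a ratio of means of 1.20. All treated cultures exceeded all controls in this sum. Dusp2, Dusp4 and Dusp5 made up most of it in both groups, so the sum mainly follows these genes. Dusp4 held 30.3% ± 0.688 of the sum in Th1 cells and 16.7% ± 0.941 after ALX-5407, and Dusp5 held 20.2% ± 0.778 and 32.6% ± 1.57 (SD, n = 3 each). By class, the nuclear genes summed to 174 ± 6.49 and 219 ± 10.2 RPKM, the cytoplasmic ERK phosphatases to 22.3 ± 0.535 and 28.4 ± 2.49 RPKM, and the atypical genes to 12.5 ± 0.978 and 10.7 ± 0.991 RPKM. The JNK and p38 phosphatases Dusp10 and Dusp16 summed to 12.1 ± 0.629 RPKM in Th1 cells and to 7.21 ± 0.0833 RPKM in treated cells, a ratio of 0.595. Their share of the total went from 5.49% ± 0.393 to 2.72% ± 0.0634 (SD, n = 3 each). The fall of this sum was that of Dusp16, from 9.14 to 4.19 RPKM, while Dusp10 was at 2.99 and 3.02 RPKM.

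Ratios of genes within a library do not depend on the scaling of that library. The ratio of Dusp5 to Dusp4 per length was 0.691, 0.632 and 0.672 in Th1 cells and 1.93, 2.00 and 1.95 with ALX-5407, a difference of 1.56 on the log2 scale. The ratio of Dusp2 to Dusp4 went from 0.757, 0.755 and 0.880 to 1.52, 1.77 and 1.84, a log2 difference of 1.10. In both pairs the gene with the lower level in control cultures had the higher level in treated cultures. For Dusp7 to Dusp6 the ratio was 0.228, 0.305 and 0.215 against 0.541, 0.587 and 0.500, a log2 difference of 1.14. For Dusp16 to Dusp10 it was 3.38, 2.77 and 3.07 against 1.32, 1.42 and 1.43, a log2 difference of -1.14. All 4 ratios separated the groups completely. An exact two-sided permutation test gave p = 0.10 for each, the smallest that 3 against 3 cultures can give. Benjamini-Hochberg adjustment over the 4 pairs left it at 0.10. Each pair set a called gene against a gene that moved the other way or was not called, and Dusp4 was used in more than 1 pair. The separation therefore largely follows from the values of the single genes above and is no separate support.

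The genes with the pattern most like that of Dusp7 over the 6 libraries, among 12116 genes with a mean of at least 50 counts, were Hist1h1e, Ntng2 and Hmces, with root mean square differences in centred log2 CPM of 0.055, 0.071 and 0.075 and log2 fold changes of 1.14, 1.05 and 1.13. Closest to Dusp16 were S1pr1, Lrp1 and Ncf1, at 0.021, 0.042 and 0.042 with log2 fold changes of -1.12, -1.08 and -1.10. The likeness is a description over 6 libraries in 2 groups, in which any gene of similar fold change and small spread comes close.

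The 132 other genes of the MAPK pathway included 117 tested genes, of which 39 (33.3%) rose and 20 (17.1%) fell in edgeR at the 0.05 threshold, beside 24.5% and 23.2% of all genes. The counts by role below stand beside the same shares of all genes, and no difference from these shares was tested. As DEGs, 4 were higher and 3 lower, the latter falling to 1 without ALX-5407 replicate 3. Their median log2 fold change was 0.12. The plot of the pathway by role sets the 10 phosphatases beside them.

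Among the other members of the DUSP family and related enzymes, 15 were tested, with 1 higher, Rngtt, the mRNA capping enzyme, at a log2 fold change of 0.35, and 2 lower, the cofilin phosphatase Ssh3 at -0.43 and Dusp19 at -0.32. The call of Dusp19 was lost in 6 of 14 alternatives, among them DESeq2 and 4 of the 6 fits with 1 replicate left out (adjusted p = 0.0654 to 0.157 where lost). The share called was 3 of 15 here and 7 of 10 among the phosphatases described above, beside 47.7% of all genes tested. The difference was not tested. Several of these 15 genes had mean counts below 248, the lowest among the 10, going down to 11.3. The shares therefore compare genes of unlike counts. Other phosphatases that act on MAP kinases or on T cell receptor signalling had 5 of 14 higher and 2 lower. Ptpn2, a tyrosine phosphatase of JAK and STAT proteins, fell from 230 ± 8.66 to 137 ± 2.76 CPM (SD, n = 3 each; log2 fold change -0.75), and Ptpn22, which restrains Lck, from 255 ± 10.3 to 203 ± 6.77 CPM (-0.33). Ppm1l, a serine and threonine phosphatase, rose from 7.39 ± 0.709 to 16.9 ± 1.64 CPM (1.19), and Ppp2cb, a catalytic subunit of PP2A, from 63.4 ± 1.60 to 80.7 ± 0.680 CPM (0.35).

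Of the kinases that these phosphatases act on, 11 MAP kinase genes were tested. Of these, 3 (27.3%) were higher and 1 (9.09%) lower, beside 24.5% and 23.2% of all genes tested. Mapk14, which encodes p38α, the substrate of Dusp1, Dusp10 and Dusp16, was at 50.5, 48.9 and 50.9 CPM in Th1 cells and at 90.1, 90.8 and 86.6 CPM in treated cells. It rose without overlap by a log2 fold change of 0.83 (edgeR, adjusted p = 1.21e-07). Mapk6, an atypical MAP kinase, rose by 0.39 on the log2 scale, and Mapk8, which encodes JNK1, had -0.24, a call lost in 7 of 14 alternatives, among them DESeq2 and 5 of the 6 fits with 1 replicate left out (adjusted p = 0.0508 to 0.263 where lost).

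Upstream, 2 of 7 MAP2 kinases (28.6%) were higher and 2 (28.6%) lower, near the 24.5% and 23.2% of all genes tested. Map2k3, an activator of p38, rose by a log2 fold change of 0.60, and Map2k2, an activator of ERK, by 0.41. Map2k6, another activator of p38, fell by 0.42 on the log2 scale. Map2k7, an activator of JNK, went from 95.5, 116 and 69.7 CPM to 50.6, 49.1 and 46.7 CPM, a log2 fold change of -0.94 (edgeR, adjusted p = 1.62e-05). Its control cultures were widely spread but all above the treated ones. Of 22 MAP3 kinases, 7 were higher and 6 lower, among them the stress kinases Map3k5 at 0.78 and Map3k4 at 0.79, Map3k3 at 0.72, and Map3k20, a kinase activated by ribosome stalling, at -1.08. Of 10 scaffolds, 2 were higher and 3 lower. Mapk8ip3, a scaffold of JNK signalling, went from 515 ± 31.1 to 253 ± 15.6 CPM (SD, n = 3 each; log2 fold change -1.02), and Spag9, a related scaffold, had -0.27, a call lost without ALX-5407 replicate 2 (adjusted p = 0.0578 in edgeR). Ksr1, the scaffold of the ERK cascade, rose by 0.83 and Iqgap1 by 0.27.

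Downstream, 4 of 10 MAPK-activated kinases (40.0%) were higher in edgeR and 0 lower, beside 24.5% and 23.2% of all genes tested. Rps6ka1, a kinase activated by ERK, rose by a log2 fold change of 0.81, Rps6ka4 and Rps6ka5, which phosphorylate histone H3 and CREB, by 0.63 and 0.36, and Mknk1 by 0.21. The call of Mknk1 was lost in 11 of 14 alternatives, among them DESeq2 and all 6 fits with 1 replicate left out (adjusted p = 0.051 to 0.117 where lost). Feedback and target genes of ERK are the group to which inducible phosphatases such as Dusp5 and Dusp6 are related. Of the 28 tested genes of this list, 15 (53.6%) were higher and 4 (14.3%) lower, beside 24.5% and 23.2% of all genes tested. Their median log2 fold change was 0.32. Egr1, an immediate early transcription factor, was at 107, 118 and 90.0 CPM in Th1 cells and at 221, 242 and 269 CPM in treated cells, a log2 fold change of 1.21 (edgeR, adjusted p = 6.9e-08). Ier5 and Spred1, an inhibitor of Ras signalling, rose by 0.89 and 0.97. Fosl2, a subunit of AP-1, fell from 683 ± 55.7 to 379 ± 55.1 CPM (SD, n = 3 each; log2 fold change -0.85). Genes of this list moved in both directions, as the 10 phosphatases did.

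**Figure D4:**
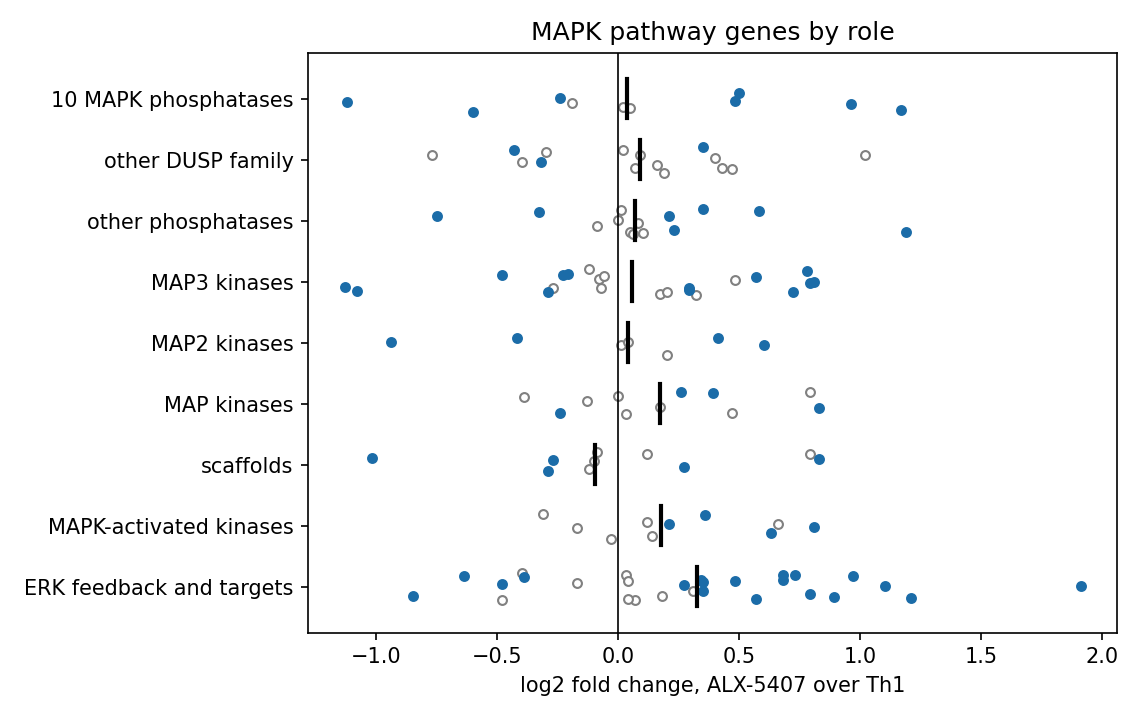
Log2 fold change, ALX-5407 over Th1, of each tested gene of the MAPK pathway by role. Filled points passed an adjusted p-value of 0.05 in edgeR, open points did not, and black bars mark the median of each role. The 10 phosphatases run from -1.12 to 1.17 around a median of 0.03, and the ERK feedback and target genes have the highest median, 0.32.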

How the data were processed

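The 6 RNA sequencing libraries, 3 without and 3 with ALX-5407, came from Th1-polarized mouse CD4+ T cells. The deposited values are raw read counts for 54532 genes in each library, neither normalized nor pooled by the authors. The submitters' processing notes name fastp, HISAT2 2.0.5, featureCounts 1.5.0-p3 and the mm10 build. The strand setting and the treatment of reads with several matches are not given in the sources used here. The labels describe poly-T capture of mRNA, whereas the methods of the study describe removal of ribosomal RNA.

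Groups and replicate numbers came from the labels, and the columns of the control libraries were matched to the Th1 samples by replicate number. edgeR 4.0.16 in R 4.3.3 was run on the counts with filterByExpr (minimum count 10, minimum total 15), TMM scaling and the quasi-likelihood F test, two-sided, with Benjamini-Hochberg adjustment over 15938 genes. Standard errors were the log2 fold change over the root of F, and 95% intervals from the t distribution of the same fit. DEGs were genes past 0.05 in adjusted p-value and past 1 in log2 fold change, in either direction. Levels per length (RPKM) used the deposited gene lengths. Totals of 30801753 to 36727788 counts per library gave the 10 genes means of 248 to 5590 counts. Replicates were further apart than counting noise allows (chi-square per degree of freedom 5.35 to 20.2), and the labels call them biological replicates without saying whether they came from separate mice, so p-values measure the spread between these cultures.

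The 10 genes and the gene lists, which were compiled from general knowledge, were chosen with earlier results of these data known. Named were the 10 genes, up to 4 genes of each MAPK list with the smallest p-values among those with an adjusted p-value under 0.05, the 3 genes closest in pattern to each DEG among the 10, genes with overlapping exons, and markers. The results for 2 genes under this rule are not reported here. Alternatives were other scalings and filters, protein-coding genes alone, limma-voom (limma 3.58.1), DESeq2 1.42.0, a replicate block and each replicate left out. The edgeR procedure was tested on simulated data. Promoter windows were RefSeq GRCm38.p6, and exons GENCODE M21 on GRCm38, in which 98.3% of 54409 shared gene identifiers had the same start and end as in the count file. Plots were made with Python 3.11.15 and matplotlib 3.10.9.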

Additional observations from a re-analysis of the deposited data

How the results depend on the processing

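Of the 10 genes, Dusp1, Dusp2, Dusp4, Dusp5, Dusp7 and Dusp16 kept their direction and an adjusted p-value under 0.05 in all 14 alternatives, with log2 fold changes of 0.42 to 0.50, 0.44 to 0.56, -0.65 to -0.53, 0.91 to 1.02, 1.09 to 1.27 and -1.18 to -1.08. Dusp22 lay between -0.31 and -0.19 with 1 replicate left out, and its call was lost in 4 of those 6 fits. Dusp6, at 0.05, lay between -0.04 and 0.11 with 1 replicate left out, at -0.00758 with upper-quartile scaling and at -0.00096 with protein-coding genes only. Dusp10, at 0.02, lay between -0.04 and 0.07 with 1 replicate left out, at -0.04 with upper-quartile scaling, at -0.00438 with a filter of 1 CPM in 3 libraries and at -0.03 with protein-coding genes only. Dusp14 stayed below 0 in every alternative, from -0.36 to -0.03, and was never called. For Dusp6 and Dusp10 the direction was not determined, and the cause was not tested. DEGs among the 10 numbered 1 to 2 higher with 1 replicate left out, and among the other MAPK genes 1 to 4 lower. Over all genes, lower DEGs numbered 603 in place of 1064 with protein-coding genes only, where fewer genes were tested. Upper-quartile scaling moved the median log2 fold change of all genes to -0.048.

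Over all genes tested, cultures with the same replicate number did not deviate together (correlations of deviations -0.0084, 0.00355 and 0.0635). These correlations thus showed no pairing, and a shared replicate effect in single genes was not tested. A fit with the replicate number as a block called 4071 genes higher and 3833 lower, against 3910 and 3695, and changed no call among the 10 genes: 4 were higher and 3 lower. At this depth the widest intervals were those of Dusp14 and Dusp10, the 2 genes with the fewest counts.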
